A study of Caenorhabditis elegans with 2 samples.

Results

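The cytosolic ribosomal protein genes of Caenorhabditis elegans were examined for binding of BLMP-1, a zinc finger transcription factor related to vertebrate PRDM1. The genes were taken by symbol, as protein-coding genes named rpl or rps followed by a number in the WBcel235 annotation. This gave 76 of 19985 protein-coding genes, 45 of the large subunit (rpl) and 31 of the small subunit (rps). The symbol rule used no measured value, though the class was chosen with earlier results of these data known. rpl-7A and rpl-36.A, whose symbols carry a letter, are given apart. Chromatin immunoprecipitation with sequencing had been done on whole embryos of mixed stage and both sexes, in 2 biological replicates that form the only group. The worms were of strain OP109, with unc-119(ed3) on III and the insertion wgIs109 that supplies eGFP-blmp-1, so both replicates carry all of these alleles. The labels name blmp-1 as the antibody and do not give the promoter of the tagged gene. Whole embryos mix all tissues, and the cells that gave a signal cannot be told apart.

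Ribosomal proteins assemble with ribosomal RNA into the subunits that carry out translation, and growing cells need all of them in balanced amounts. Their genes are small, highly expressed in most cells and scattered over the genome. In C. elegans many messenger RNAs receive a spliced leader in place of their own first bases, so an annotated gene start can lie downstream of the place where transcription begins. BLMP-1 is known mainly for its work in the epidermis and in the timing of development.

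The lists for build ce11 held 843 peaks in a list thresholded by irreproducible discovery rate (IDR). They also held 30000 candidate regions each for the pooled data and for either replicate. The signal value of a region is the authors' own score on a scale that the lists do not state. Regions were therefore ranked by signal within a list, rank 1 being the strongest, and signals were not compared between lists. All 843 IDR peaks stood at ranks 1 to 843 of the pooled list, and the regions at those ranks in a replicate are called its top set. A gene was counted at a region when the summit lay between 2000 bp upstream and 500 bp downstream of its start. The depth of the libraries is unknown, the 95% intervals in parentheses (Clopper-Pearson) cover counting error only, and neighbouring genes can share a region. No test of the gene group was made, because there is a single condition and the genes were chosen with earlier results of these data known.

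The IDR peaks near ribosomal protein genes are stretches of upstream DNA, and 8 of them are shown so that they can be read against the words counted at the summits. Each sequence holds the summit base and 50 bases on either side, 5′ to 3′ on the strand of the gene named, from the RefSeq genome sequence of WBcel235 (ce11). They come from chrIII:3867533-3867633 (rpl-3, plus strand), chrIII:7854675-7854775 (rpl-35, plus), chrIV:13240648-13240748 (rpl-12, minus), chrIV:1659231-1659331 (rps-28, plus), chrII:14154468-14154568 (rpl-43, plus), chrIV:654884-654984 (rpl-15, minus), chrIV:4750015-4750115 (rpl-20, minus) and chrIII:7179822-7179922 (rpl-36, plus, the peak it shares with rps-14). Capitals mark AGTGT or its reverse complement ACACT, and GGGCGG or its reverse complement CCGCCC.
rpl-3: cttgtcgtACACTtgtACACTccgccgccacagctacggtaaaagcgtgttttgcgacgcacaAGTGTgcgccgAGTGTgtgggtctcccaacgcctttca
rpl-35: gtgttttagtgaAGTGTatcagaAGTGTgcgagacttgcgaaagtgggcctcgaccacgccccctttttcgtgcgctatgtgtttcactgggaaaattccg
rpl-12: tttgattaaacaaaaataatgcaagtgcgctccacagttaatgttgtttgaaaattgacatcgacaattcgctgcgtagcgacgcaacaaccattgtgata
rps-28: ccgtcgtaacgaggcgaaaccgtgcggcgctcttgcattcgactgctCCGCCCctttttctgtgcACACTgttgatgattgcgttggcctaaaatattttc
rpl-43: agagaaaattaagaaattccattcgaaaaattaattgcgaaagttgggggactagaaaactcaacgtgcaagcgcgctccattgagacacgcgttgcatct
rpl-15: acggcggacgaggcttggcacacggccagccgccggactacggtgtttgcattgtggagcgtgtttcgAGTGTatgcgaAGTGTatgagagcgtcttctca
rpl-20: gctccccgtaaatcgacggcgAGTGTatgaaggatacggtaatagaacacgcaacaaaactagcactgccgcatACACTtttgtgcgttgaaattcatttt
rpl-36: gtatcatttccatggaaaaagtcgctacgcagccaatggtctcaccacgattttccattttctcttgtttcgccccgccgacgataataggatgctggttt

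None of the peaks at ribosomal protein genes held AAGTGAAA, the core of the sequence that BLMP-1 is known to bind. Searched on either strand and entirely within 50 bp of the summit, it was at 0 of 11 peaks (0 to 28.5%), against 15.5% of 818 nuclear IDR peaks and 1.85% of 29156 other nuclear pooled candidates. Within 150 bp it was still at 0 of 11, against 22.0% of the nuclear IDR peaks. With so few peaks, the share in the whole IDR list lies inside the interval. The repeat GAGAGA was at 0 of 11 within 50 bp (0 to 28.5%), against 30.6% of nuclear IDR peaks, and at 1 of 11 within 150 bp (9.09%, 0.23 to 41.3), the rpl-3 peak, against 51.3%. For this word the share in the IDR list lies above the interval at both spans. GGGCGG was at 2 of 11 within 50 bp (18.2%, 2.28 to 51.8), the peaks of rps-28 and rps-19, against 5.99%. CTGCGTC was at 0 of 11 (0 to 28.5%), against 7.34%. For both words the share in the IDR list lies inside the interval. The run TTTTTT was at 2 of 11 within 50 bp (18.2%, 2.28 to 51.8), against 21.4% of nuclear IDR peaks and 49.99% of the other candidates. Within 150 bp it was at 10 of 11 (90.9%, 58.7 to 99.8), against 61.9% and 82.1%. At both spans the share in the IDR list lies inside the interval, so no order between them can be told. The median G+C content within 50 bp was 46.5%, from 30.7% at rps-20 to 59.4% at rps-19, against 43.6% over nuclear IDR peaks and 31.7% over the other candidates. Within 150 bp it was 36.9%, against 39.9% and 32.9%, so the order of these medians against the nuclear IDR peaks turns with the span.

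A different short word recurred in the sequences, and it was chosen for counting after they were seen. AGTGT, on either strand, occurred 4 times at the rpl-3 peak, 2 times each at those of rpl-35, rpl-15 and rpl-20, and once each at those of rps-28 and rps-19. At least 2 copies were at 4 of 11 peaks (36.4%, 10.9 to 69.2), against 2.81% of nuclear IDR peaks and 3.42% of the 234 IDR peaks within 500 bp upstream of other genes. At rpl-3, rpl-35 and rpl-15 a pair of copies stood on the same strand, 11 bp from start to start with 6 bases between them, as the capitals show. That arrangement was at 5 of 818 nuclear IDR peaks (0.611%), and 3 of the 5 are these. The remaining 2 had their nearest gene starts at tasp-1, 51 bp away, and at nhr-66, 3062 bp away. It was at 4 of the 29156 other candidates, and 215 such pairs occur in the nuclear genome. Within 1000 bp upstream of the start, 52 of 19973 nuclear genes (0.260%) had a pair. The 64 ribosomal protein genes with no IDR summit had 0 pairs there (0 to 5.60%). Of the 47 distinct best candidates of those genes, 10 had AGTGT at least once (21.3%, against 21.6% of nuclear IDR peaks) and 1 had at least 2 copies. The word was counted in a group of 11 peaks from which it had been picked, so these counts are a description.

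BLMP-1 peaks of the IDR list lay near 12 ribosomal protein genes, namely rpl-1, rpl-3, rpl-12, rpl-15, rpl-20, rpl-35, rpl-36 and rpl-43 of the large subunit and rps-14, rps-19, rps-20 and rps-28 of the small subunit. They are 15.8% of the 76 (8.43 to 26.0), where 3.36% of all protein-coding genes had such a peak. Most genes of this class thus had no IDR peak. Among the 62 with any pooled candidate the 12 are 19.4% (10.4 to 31.4), where the share over all genes with a candidate was 6.1%. The large subunit had 8 of 45 (17.8%, 8.002 to 32.05) and the small subunit 4 of 31 (12.9%, 3.63 to 29.8), and these intervals overlap. On chromosomes I, II, III and IV, 3 of 23, 1 of 9, 4 of 18 and 4 of 16 of the genes had a peak. None of the 8 genes on V (0 to 36.9%) or the 2 on X (0 to 84.2%) had one, and these intervals include the 15.8% of the whole class. Every one of the 12 summits lay upstream of the gene start and outside all protein-coding genes.

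The strongest peak among large subunit genes was upstream of rpl-3, whose protein reaches towards the peptidyl transferase centre. Its signal was 169.1, the summit lay 271 bp upstream of the start at III 3867583, and it ranked 59 in the pooled list, 50 in replicate 1 and 89 in replicate 2. The rpl-35 peak, for a protein at the exit of the polypeptide tunnel, had signal 115.5 at 409 bp upstream and ranked 132, 141 and 181 in the same lists. These peaks stand well inside the top set of both replicates, and no other protein-coding gene had either summit in its window. The rpl-12 peak, for a protein at the base of the ribosomal stalk, had signal 67.2 and ranks of 401, 526 and 505. Its summit was 47 bp upstream, the closest of the 12. The rpl-15 peak had signal 58.65 at 358 bp upstream and ranks of 525, 525 and 761, also within both top sets.

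The other large subunit peaks were less even between the replicates. The rpl-43 peak, with signal 59.6, ranked 182 in replicate 2 and 2022 in replicate 1, and at 776 bp it lay farthest from its gene start. The rpl-20 peak, with signal 56.5 at 287 bp upstream, ranked 804 in replicate 1 and 1735 in replicate 2. The rpl-1 peak, for a protein of the mobile L1 stalk, had signal 50.3 at 370 bp upstream, with ranks of 826 and 1434. In each of these, 1 replicate placed the region outside its top set. The rpl-36 peak had signal 50.5 at 379 bp upstream and ranked 453 in replicate 1, while no candidate of replicate 2 overlapped it.

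Of the small subunit genes, rps-19, rps-28 and rps-20 had peaks in the top sets of both replicates. RPS-19 is a protein of the head of the subunit whose human counterpart is mutated in Diamond-Blackfan anaemia. Its peak had signal 69.9 at 298 bp upstream and ranked 369 in the pooled list, 385 in replicate 1 and 647 in replicate 2. The rps-28 peak had signal 63.9 at 410 bp upstream and ranks of 448, 692 and 210. The rps-20 peak, also for a head protein, had signal 63.3 at 154 bp upstream and ranks of 456, 418 and 841, the last of them near the end of the top set. The peak of rps-14, for a protein of the platform, is the one shared with rpl-36 and lay 284 bp from its start. It thus has the same signal, and no region of replicate 2 overlapped it.

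Of the 12 genes, 7 had their peak in the top sets of both replicates and 5 did not. Over all protein-coding genes, 350 reached both top sets and 672 had an IDR summit. How many did both is not given here, so the 7 are not read as particular to this class. With the replicates ranked by −log10 q value in place of signal, 2 of the 12 were in both, and among the 422 strongest IDR peaks only rpl-3, rpl-35, rps-19 and rpl-12 had one. Over all 76, both top sets were reached by 9.21% (3.78 to 18.1), where 1.75% of all protein-coding genes were. Replicate 1 placed 12 of the 76 in its top set (15.8%), where 3.17% of all genes were, and replicate 2 placed 18 (23.7%, 14.7 to 34.8), where 3.19% were. The summits of a peak in the 2 replicates differed by 6 to 66 bp at the 10 genes with a region in both, least at rps-19 and rpl-12 and most at rps-20.

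**Figure D1:**
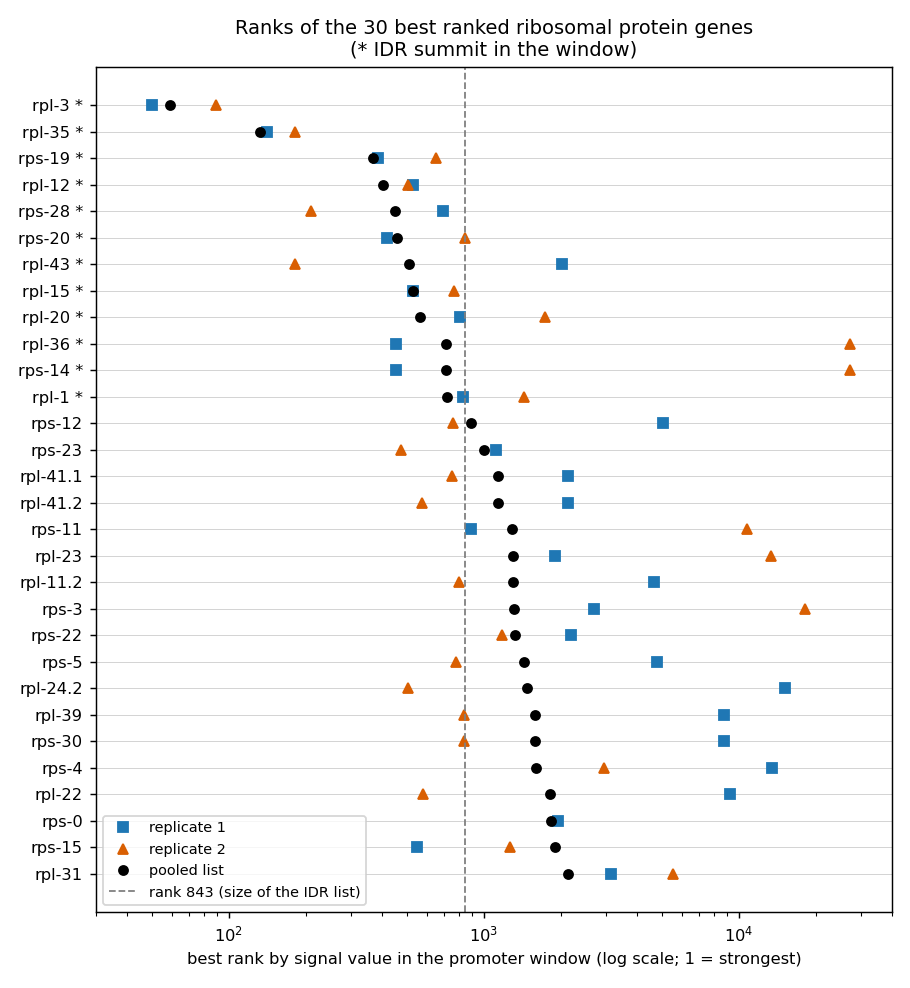
Best rank by signal value (log scale, 1 = strongest) in the pooled list and in each replicate for the 30 ribosomal protein genes ranked highest in the pooled list, with an asterisk at genes that have an IDR summit and a dashed line at rank 843. rpl-3 and rpl-35 stand left of the line in all 3 lists, and from rps-12 downwards the replicates often lie on either side of it.

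Several further genes fell just short of the IDR list. The lowest peak of a ribosomal protein gene in that list, at rpl-1, had signal 50.3 and the list ended at 46.1, whereas the first gene outside, rps-12, had signal 44.9 and pooled rank 888. It ranked 758 in replicate 2 and 5047 in replicate 1. The next was rps-23, for a protein of the decoding centre, with pooled rank 1000 and ranks of 1111 and 475 in replicates 1 and 2. The neighbours rpl-41.1 and rpl-41.2 followed with 1 region at pooled rank 1139. Then came rps-11 at 1284, rpl-23 at 1303, rpl-11.2 at 1305, rps-3 at 1312, rps-22 at 1320 and rps-5 at 1436. Of these, rps-11, rpl-23 and rps-3 ranked 10749, 13384 and 18114 in replicate 2, and 888, 1896 and 2699 in replicate 1. At rpl-23 these are different regions, 323 bp upstream in replicate 1 and 1521 bp upstream in replicate 2.

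Some genes had a region in the top set of 1 replicate only. Over all 76, these were 11 genes in replicate 2 (14.5%) and 5 in replicate 1 (6.58%), where 1.44% and 1.42% of all protein-coding genes were. Of the 12 with an IDR summit, 4 were of replicate 1 only (33.3%) and 1 of replicate 2 only (8.33%). Over all genes, 284 were of replicate 1 only, 105 of them without an IDR summit, and 288 of replicate 2 only, 192 of them without one. All genes with an IDR summit numbered 672, and counts among 12 are too small to set against these. Of the 64 ribosomal protein genes without an IDR summit, 10 were of replicate 2 only (15.6%) and 1 of replicate 1 only (1.56%). The shares of all genes without an IDR summit were 0.994% and 0.544%. Those 10 were rps-12, rps-23, rpl-41.1, rpl-41.2, rpl-11.2, rps-5, rpl-24.2, rpl-39, rps-30 and rpl-22, the single gene of replicate 1 being rps-15. The gap was wide at rpl-24.2, which ranked 503 in replicate 2 and 15218 in replicate 1. At rpl-22 the ranks were 576 and 9245, and at the region shared by rpl-39 and rps-30 they were 835 and 8767. rps-15 ranked 546 in replicate 1 and 1268 in replicate 2 with regions that do not overlap, 361 and 840 bp upstream. The best regions of the replicates overlapped at 38 of the 55 ribosomal protein genes that have one in both (69.1%), and at 40.3% of 7187 such protein-coding genes. Over the 55, the best ranks gave a Spearman's rho of 0.293, against 0.340 over the 7187. Both values are descriptions across genes of the same pair of libraries.

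Further down the lists the ribosomal protein genes continued to be frequent. Pooled rank 2000 or better was reached by 29 of 76 (38.2%, 27.3 to 50.02), where 7.29% of all protein-coding genes reached it. Rank 5000 or better was reached by 40 (52.6%, 40.8 to 64.2), where 15.3% of all genes did. Any pooled candidate was present at 62 (81.6%, 71.0 to 89.6), where 55.2% of all genes had one. In replicate 1 a candidate was present at 62, where 54.9% of all genes had one, and in replicate 2 at 65 (85.5%), where 57.3% had one. Among genes with a pooled candidate, the median best rank was 2248 for the ribosomal protein genes and 10570 for all genes. In replicate 1 these medians were 4644 and 10960, and in replicate 2 they were 4309 and 11340. A pooled candidate of any rank was thus present at most protein-coding genes, and the weakest among the 62 was that of rps-27 at rank 27419.

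**Figure D2:**
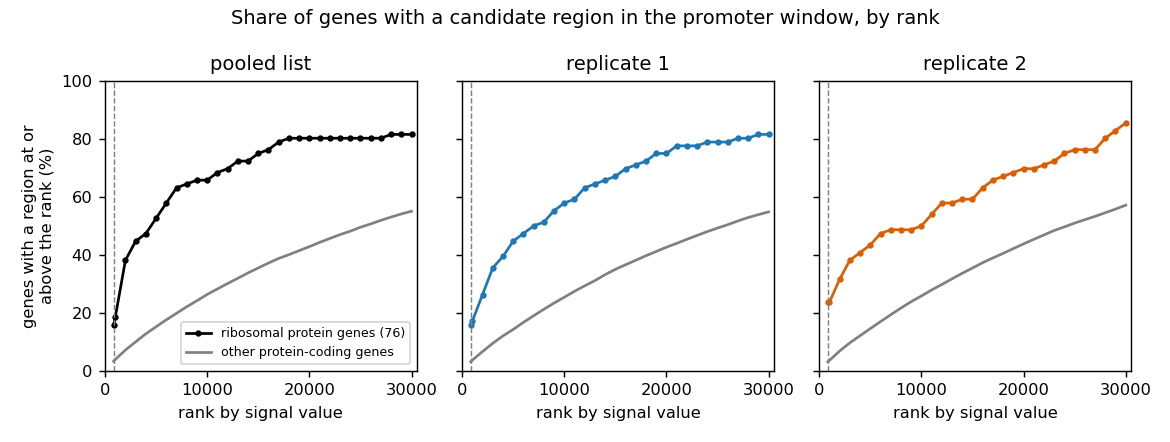
Share of genes (%) with a candidate summit in the promoter window at or above a given rank by signal value, for the 76 ribosomal protein genes and for other protein-coding genes, in the pooled list and in each replicate. The ribosomal protein genes lie above the other genes in all 3 lists, with 15.8% against 3.32% at pooled rank 843.

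No pooled candidate was found at 14 of the genes: rpl-5, rpl-9, rpl-10, rpl-14, rpl-25.1, rpl-25.2, rpl-38, rpl-42, rps-2, rps-6, rps-7, rps-9, rps-13 and rps-16. Of these, 11 had a candidate in a replicate and 3, rpl-38, rpl-42 and rps-2, had none in any list. The best ranks in this group were 1589 for rpl-5 in replicate 1, 1811 for rps-16 in replicate 2 and 1960 for rps-13 in replicate 2. RPL-5 binds 5S ribosomal RNA together with RPL-11, and in replicate 2 its best region ranked 28803. Of the genes that exist as numbered pairs, those of rpl-11 and rpl-24 differed in rank within the pair. rpl-11.2 had a region 348 bp upstream at pooled rank 1305, and rpl-11.1 had its best one 1756 bp upstream at rank 2503. rpl-24.2, related to a yeast factor that acts in the assembly of the large subunit, ranked 1470, and rpl-24.1 ranked 5892. The pair rpl-25.1 and rpl-25.2 had no pooled candidate. The pair rpl-41.1 and rpl-41.2 shared their best pooled region, 542 bp upstream of the first and 1644 bp upstream of the second. In replicate 2 the best region of rpl-41.2 was a different one, 267 bp upstream at rank 572, and that of rpl-41.1 ranked 751. The sources used here do not give how reads that map to several places were treated.

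The regions lay in a narrow band upstream of the starts. The IDR summits had a median position of 328 bp upstream, and 11 of 12 were within 500 bp upstream (91.7%), against 45.1% of the 672 genes with an IDR summit. For the best pooled candidates the share within 500 bp upstream was 48 of 62 (77.4%), against 31.0% of all genes with a candidate. Only 2 of 62 lay downstream of the start (3.23%), at rpl-19 and rpl-18, against 15.3%, and 5 lay more than 1000 bp upstream (8.07%), against 33.99%. The band was sharpest between 200 and 400 bp upstream, a span chosen after the values were seen. It held 33 of 62 best candidates (53.2%, 40.1 to 66.0), against 12.2% of 10963 other genes.

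The share in that span was alike for strong and weak regions, within the counting error. In the same span stood 17 of the 29 with pooled rank 2000 or better (58.6%) and 11 of the 22 with a rank beyond 5000 (50%, 28.2 to 71.8). The shares of other genes at those ranks were 16.3% and 11.2%. Both replicates gave a like median position when taken alone, with best candidates 341 bp upstream in replicate 1 and 314 bp upstream in replicate 2, against 595 and 599 bp over all genes. The band was looser there than in the pooled list. Within 500 bp upstream stood 72.6% in replicate 1 and 60.0% in replicate 2, against 77.4% in the pooled list. Over all genes the replicate shares were 30.3% and 28.2%.

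**Figure D3:**
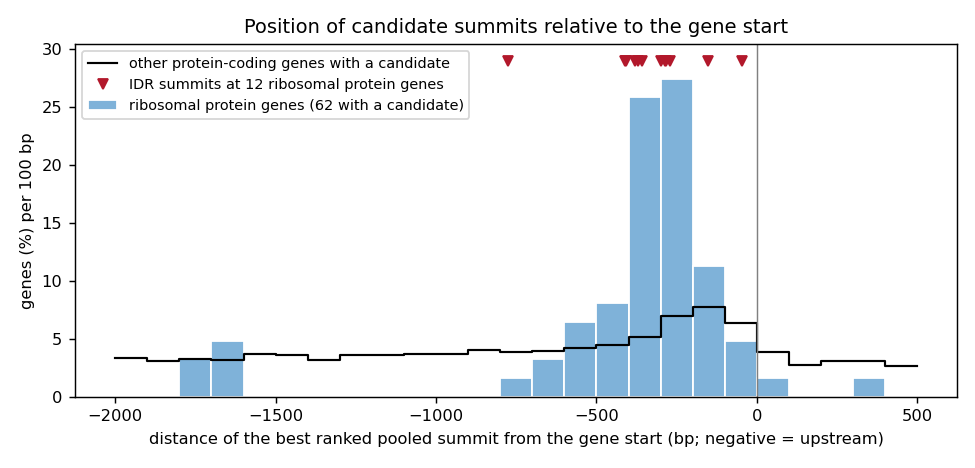
Distance of the best ranked pooled summit from the gene start in bp (negative = upstream), as the share of genes (%) per 100 bp, with bars for the 62 ribosomal protein genes that have a candidate, a line for other protein-coding genes and triangles for the IDR summits at 12 ribosomal protein genes. The bars gather between 200 and 400 bp upstream, where 53.2% of the ribosomal protein genes and 12.2% of the other genes fall.

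Most of the IDR peaks lay between a ribosomal protein gene and a second gene read away from it. At 10 of the 12 genes the summit was also in the window of another protein-coding gene, and at 9 of them that gene was divergent. The like share over all genes with an IDR summit is not given here. The 10 are thus not read as particular to this class. A divergent gene started within 2000 bp at 64.5% of the whole class and at 281 of the 672 protein-coding genes with an IDR summit. At rps-19 the partner was hsr-9, a homologue of 53BP1, whose start was 147 bp from the summit and 445 bp from that of rps-19. At rpl-12 it was lin-54, of the DREAM complex, at 346 bp from the summit, and at rps-20 it was ekl-4, a homologue of DMAP1, at 243 bp. The summits near rpl-43, rpl-20 and rpl-1 were closer to the partner than to the ribosomal protein gene. Their distances to the partners Y48B6A.1, Y17G9B.5 and Y71F9AL.9 were 145, 175 and 254 bp, and the summit of rps-19 was likewise nearer to hsr-9. The partner of rpl-15 was K11H12.8, 456 bp from the summit. At such peaks the list does not assign the binding to either gene.

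One peak served a pair of ribosomal protein genes, rps-14 and rpl-36, whose starts are 663 bp apart. Its summit was 284 bp from the start of rps-14 and 379 bp from that of rpl-36. rpl-3 and rpl-35 had their peaks to themselves, and rps-28 shared its own only with Y41D4B.4, which is read in the same direction and starts 829 bp from the summit. Genes read in the same direction farther along also had a summit in their windows, among them xrn-2 behind rpl-43, tag-115 behind rpl-12, Y105E8A.14 behind rps-20, K11H12.1 behind rpl-15, cyc-2.1 behind rpl-20, ndab-2 behind rpl-36 and Y71F9AL.12 behind rpl-1. Y71F9AL.8 was a second divergent gene at rpl-1, 1900 bp from the summit. Counted for the nearest start alone, 7 of the 12 genes kept their peak: rpl-3, rpl-35, rpl-12, rps-28, rps-20, rpl-15 and rps-14. Noncoding genes within 500 bp of a summit were found only at rpl-1, where the ncRNA genes Y71F9AL.20 and Y71F9AL.19 lay 20 and 124 bp from it.

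**Figure D4:**
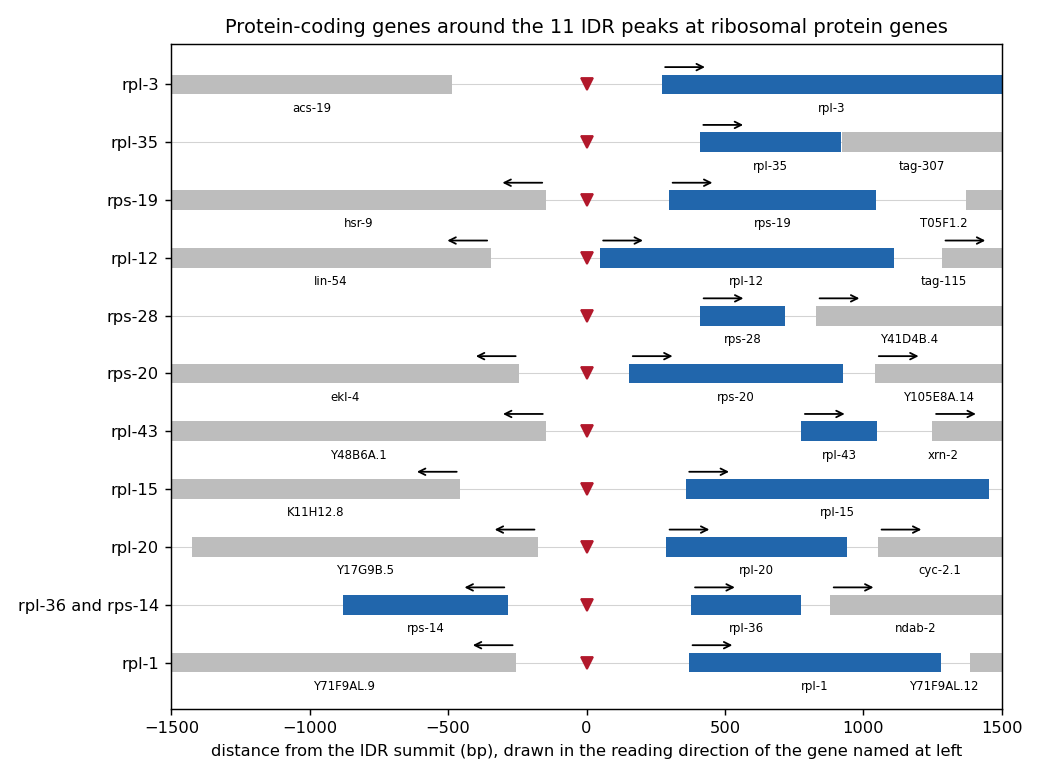
Protein-coding genes around the 11 IDR peaks at ribosomal protein genes, each drawn against distance from the summit in bp and in the reading direction of the ribosomal protein gene named at the left. Summits mostly lie in the gap between 2 divergent genes, except at rpl-3, rpl-35 and rps-28.

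Divergent neighbours were common in the class as a whole. A divergent protein-coding gene started within 2000 bp at 49 of the 76 (64.5%), against 27.8% of all protein-coding genes, with a median gap between the starts of 567 bp (range 266 to 1986) against 742.5 bp. An IDR summit was present at 9 of these 49 (18.4%) and at 3 of the 27 without such a neighbour (11.1%). Over all genes the shares were 5.05% and 2.71%. In both classes the ribosomal protein genes had the higher share, on counts too small to set the classes apart. The band of positions was likewise seen in both, with 24 of 41 best candidates in the span of 200 to 400 bp upstream at genes with a divergent neighbour (58.5%) and 9 of 21 without (42.9%). Other genes had 15.0% and 11.03% there. The class held 3 divergent pairs of its own, rps-14 with rpl-36, rpl-39 with rps-30, which is made as a fusion to a ubiquitin-like protein, and rps-10 with rpl-24.1. Each pair shared its best pooled candidate, so these genes do not count as separate observations.

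Other genes of translation were compared mainly by 2 counts, for which all protein-coding genes gave 3.36% with an IDR summit and 7.29% at pooled rank 2000 or better. Any pooled candidate was present at shares from 64.0% (ribosome biogenesis) to 80.5% (translation factors), close to the 81.6% of the ribosomal protein genes. Both top sets were reached by 0% (mitochondrial ribosomal proteins) to 12.9% (aminoacyl-tRNA synthetases), a range that holds the 9.21% of the ribosomal protein genes. Mitochondrial ribosomal protein genes had an IDR summit at 4 of 70 (5.71%, 1.58 to 13.99), namely mrpl-28, mrpl-39, mrps-34 and mrps-9, and a region of pooled rank 2000 or better at 5 (7.14%), which is at the share of all genes. Translation factor genes had 3 of 41 (7.32%), eif-2Bbeta, eif-3.C and eef-1A.1, and 9 with rank 2000 or better (22.0%). Aminoacyl-tRNA synthetase genes had 5 of 31 (16.1%, 5.45 to 33.7), ears-2, lars-1, aars-1, iars-2 and aars-2. That is about the share of the cytosolic ribosomal protein genes, but at rank 2000 or better the count was still 5, where the ribosomal protein genes had 38.2%. Ribosome biogenesis genes had 1 of 25 (4.0%), nola-3, which has the same peak as iars-2. The intervals of these lists overlap that of the ribosomal protein genes for IDR peaks. At rank 2000 or better the interval of the ribosomal protein genes was 27.3 to 50.02. It lay above that of the mitochondrial ribosomal proteins (2.36 to 15.9), ended just above that of ribosome biogenesis (0.984 to 26.0) and overlapped the other lists. The interval counts genes with a shared region separately, as at rpl-36 with rps-14, rpl-41.1 with rpl-41.2 and rpl-39 with rps-30. The narrow gap to ribosome biogenesis is therefore not read as a difference.

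**Figure D5:**
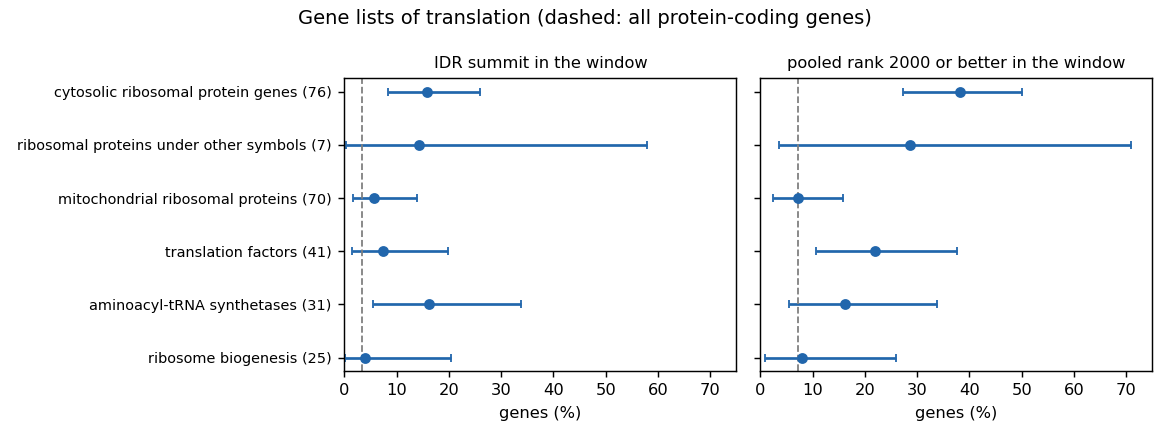
Share of genes (%) in lists related to translation with an IDR summit or with a region of pooled rank 2000 or better in the window, with 95% Clopper-Pearson intervals and a dashed line at the share of all protein-coding genes. The cytosolic ribosomal protein genes stand at 15.8% and 38.2%, and the mitochondrial ones at 5.71% and 7.14%.

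Ribosomal proteins under other symbols had an IDR summit at 1 of 7. It was at ubl-1, which encodes a small subunit protein fused to a ubiquitin-like protein. The ubl-1 peak had signal 59.9 at 191 bp upstream and ranked 502 in the pooled list, 401 in replicate 1 and 1646 in replicate 2. The other 6, which include rpl-7A and the stalk protein genes rla-0, rla-1 and rla-2, had none. rpl-7A had a candidate 85 bp upstream at pooled rank 3474. rpl-36.A, in none of these lists and picked out after its value was seen, had a stronger peak than any of the 76 except rpl-3. Its signal was 141.5 at II 11097521 to 11097641, 383 bp upstream of the start, and it ranked 89 in the pooled list, 113 in replicate 1 and 64 in replicate 2. AGTGT occurred once within 50 bp of that summit, and AAGTGAAA and GAGAGA were not in the span.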

How the data were processed

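BLMP-1 ChIP-seq peak lists in narrowPeak form on build ce11 were used: the IDR list, the pooled candidates and the candidates of each replicate. The deposited signal value (column 7) is the authors' score, whose normalization the lists do not state. The deposited −log10 q value (column 9, named by the narrowPeak convention) is at its ceiling in 93.6% of IDR peaks and entered alternatives only. The deposited summit offset gave the summit positions, printed 1-based. Which aligner, caller and IDR cut-off were used is not given in the sources used here. A control experiment named in the labels was not analysed here, and the ce10 lists were not used here, since no ce10 genome was at hand and no position was converted.

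Genes came from the WBcel235 annotation of Ensembl release 115, and sequences from the RefSeq genome. Counts, medians and ranks were computed in Python 3.11.15 with pandas 2.3.3, numpy 2.4.6 and scipy 1.17.1, and figures were drawn with matplotlib 3.10.9. The code was tested on simulated data. A region of a replicate matched a peak when they overlapped by at least 1 bp. Words were sought on either strand and had to lie entirely inside the span, overlapping matches included. Of the 29 ribosome biogenesis symbols, 25 were in the annotation.

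Named were all genes with an IDR summit, the 10 best ranked without one, those in the top set of 1 replicate, those with no pooled candidate, the numbered pairs, the genes sharing a peak and the bound genes of the comparison lists. The genes, lists and words were chosen with earlier results of these data known. Alternatives covered the window, the transcript start, the nearest start, the stronger IDR peaks, each replicate alone, the ranking column, the match of regions and the span for words.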

Additional observations from a re-analysis of the deposited data

How the results depend on the processing

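Of 34 alternative values, 12 moved by more than the replicate spread or, for counts, by more than 1.5 times, 22 did not, and 0 reversed. The 12 genes with an IDR summit became 7 when a summit counted for the nearest start only and 4 (rpl-3, rpl-35, rps-19 and rpl-12) with the 422 strongest IDR peaks. With 1 replicate left out, the top set of the other replicate took the place of the IDR list. That top set lay near 18 genes without replicate 1 and 12 without replicate 2. The median summit position of -328 bp became -284 with the nearest start and -284.5 with the strongest IDR peaks. In the top sets it was -282.5 without replicate 1 and -329.5 without replicate 2. The median best pooled rank of 2247.5 became 1903 with a window of 1000 bp upstream to 200 bp downstream, and 2802 with the nearest start. Within the list of replicate 2 alone it was 4309, and within that of replicate 1 alone 4643.5. These are ranks in other lists than the pooled one. The 7 peaks in both top sets became 2 when ranked by column 9 and 4 with the strongest IDR peaks. GAGAGA went from 0 to 1 peak at 150 bp. For these moves the cause was not tested, beyond the smaller sets that the nearest start and the strongest peaks leave. The narrower windows gave 12 and 11 genes. The 62 genes with a pooled candidate became 42 with the nearest start only, and 57 and 54 with the narrower windows. The candidate list of 1 replicate in place of the pooled list gave 62 in replicate 1 and 65 in replicate 2. No paired analysis was possible because both replicates belong to 1 group. The lists give no read counts, so what depth limits could not be assessed.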

Other observations

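Promoter sequences of the ribosomal protein genes, 250 bases before to 50 after the annotated start, held TTTTTT on either strand at 70 of 76 (92.1%, 83.6 to 97.1), against 80.1% of 19973 nuclear protein-coding genes. TTTCAG, the form of a splice acceptor, was on the gene's strand at 48 of 76 (63.2%, 51.3 to 73.9), against 39.6%. AAGTGAAA was at 4 of 76 (5.26%), against 4.66%, and GAGAGA at 17 of 76 (22.4%), against 21.8%. GGGCGG was at 3 (3.95%), against 7.83%, and CTGCGTC at 1 (1.32%), against 4.34%. AAGTGAAA was in this window at 0 of the 12 genes with an IDR summit (0 to 26.5%), an interval that includes the 4.66% of all genes. The window reaches the IDR summit only at rpl-12 and rps-20, 47 and 154 bp upstream, so it does not bear on most of the peaks. The median G+C content was 33.0%, against 34.3%.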
